A study of Mus musculus with 4 samples.

Results

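The genes described here encode proteins that write, erase or read chemical marks on histones and DNA, or that move nucleosomes. They were chosen by symbol: every probe set annotated with exactly 1 gene symbol that belongs to the Kdm, Hdac, Kat, Prmt, Setd, Kmt2, Ezh, Dnmt, Tet, Brd, Smarc, Chd or Mll families, or is Eed, Suz12, Ehmt2, Crebbp or a related name, with Kdm5d left out. This gave 143 probe sets for 88 genes, of 10926 genes named on the arrays, and where a gene had several probe sets the brightest one, by its mean across the 4 arrays, was read. The genes were chosen by name and no measured value, but the probe set read for each was chosen by its measured level. The rule was set with earlier results of these data known. Not all of the 88 are enzymes: 11 SMARC proteins include structural subunits of remodelling complexes, and 6 bromodomain proteins mostly read acetylated histones. The 5 Mllt genes matched the pattern through their symbol, which names them as partners of MLL in leukaemia fusions. Of the family members looked for by name, Kdm6b, Hdac3, Hdac9, Hdac11, Kat5, Ep300, Suv39h1, Suv420h1, Suv420h2, Tet1 and Smarca4 were among those not analysed here.

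Mouse brown adipocytes, the heat-producing fat cells, were made from wild-type preadipocytes that carried either a construct for Blnc1, a long noncoding RNA enriched in brown fat, or the vector alone, and RNA was taken on day 6 of differentiation. There were 2 arrays of Blnc1 cells and 2 of vector cells. Replicates are labelled biological, but whether each was a transduction of its own is not stated. The p-values therefore reflect the spread between 2 arrays a group, and that number limits the precision. Values are the deposited log2 levels, 1 per probe set and array, and a difference is Blnc1 minus vector on that log2 scale.

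Acetyltransferases and deacetylases set and remove acetyl groups on histone tails, which open chromatin and are bound by bromodomains. Methyltransferases of the SET and PRMT families methylate lysines and arginines, demethylases of the LSD1 and Jumonji kinds remove lysine methyl groups, and DNMT and TET enzymes set and oxidise methyl groups on cytosine. In fat, Ezh2 represses Wnt genes in preadipocytes, Kmt2c and Kmt2d prepare enhancers for differentiation, Kdm1a and Ehmt1 work with Prdm16, and Kdm3a acts on the promoters of thermogenic genes. These are published roles and not results of these arrays.

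The arrays read the construct: the probe set named C730029A08Rik, which stands with Blnc1 among the synonyms of Paqr9 in the RefSeq gene table, held 12.73 and 12.75 in Blnc1 cells, against 8.08 and 8.14 in vector cells. Adipoq and Fabp4 stood in the top of the range in all 4 arrays. The summed level of 7 measured general adipocyte markers was 14.30 to 14.32 (log2 of the sum) in Blnc1 cells and 14.35 in both vector arrays. Such a sum is weighted to its brightest genes. Of the 7 markers 4 were higher and 3 lower in Blnc1 cells, and none passed the test. Cebpa (-0.23) and Pnpla2 (-0.31, in the dimmest 25% of probe sets) were lower at an unadjusted limma p under 0.05, where all genes gave 9.08% lower. All 8 measured brown markers were higher in Blnc1 cells, 5 of them past the test. Of the markers of other cells, 3 macrophage genes, 1 endothelial gene and 3 muscle genes were measured, and 6 of these 7 lay in the dimmest 25% of all probe sets. Preadipocyte and fibroblast markers (6 of 9 measured) summed to 10.61 and 10.71 in Blnc1 cells, against 11.06 and 11.15 in vector cells. All 18 hybridization controls were lower in the Blnc1 arrays, with a median difference of -0.27, and for the Gapdh and Actb control probe sets the 3' level minus the 5' level was smaller there, by -0.13 and -0.17. The Y-linked genes Kdm5d and Uty were also lower and Xist higher in Blnc1 cells. The part of these shifts in the results on chromatin genes was not tested.

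The first question was whether forced Blnc1 expression altered the levels of these chromatin regulators. None of the 88 genes passed limma's test (threshold of 0.05 after Benjamini-Hochberg adjustment over all 23599 probe sets), in a comparison that called 1.23% of all genes. At an unadjusted p under 0.05, 15 of the 88 were counted, 10 with a higher and 5 with a lower level in Blnc1 cells, a share of 17.0% beside 20.7% of all genes (11.7% higher and 9.08% lower). Of the 88 differences 49 were positive and 39 negative, with a median of 0.021, against 0.0073 over all genes. The groups did not overlap for 42 of the 88 genes, or 47.7%, against 53.2% of all genes. Of the other settings, 3 called members, 3 genes each and all higher in Blnc1 cells. A variance prior that follows the level called Kdm3a, Kdm5a and Smarcd3, where it called 11.3% of all genes (6.38% higher). A threshold of 0.1 called Kdm3a, Prmt2 and Smarcd3, where it called 4.99% of all genes (3% higher). Averaging the probe sets of each gene called the same 3, where it called 4.27% of all genes (2.69% higher). In bulk RNA of this kind, fewer cells of a type and less RNA per cell cannot be told apart.

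The differences were small as well as uncalled. Of the 88 genes, 73 differed by less than 0.2 in either direction, or 83.0%, against 74.1% of all genes, and 2 differed by more than 0.5, Kdm3a and Smarcd3. The 95% interval of the difference lay within a 2-fold change in either direction for all 88 genes, and for 10803 of all 10926 genes. It lay within a 1.5-fold change for 82 of the 88 (93.2%, against 89.9% of all genes). These intervals used the spread between 2 arrays a group together with limma's prior, with a median SE of 0.085. Single replicate arrays differed by a median of 0.098 (Blnc1) and 0.068 (vector) per gene. The median size of the difference between the group means was 0.083. Means of 2 arrays vary less than single arrays, so these values cannot be compared directly.

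**Figure D1:**
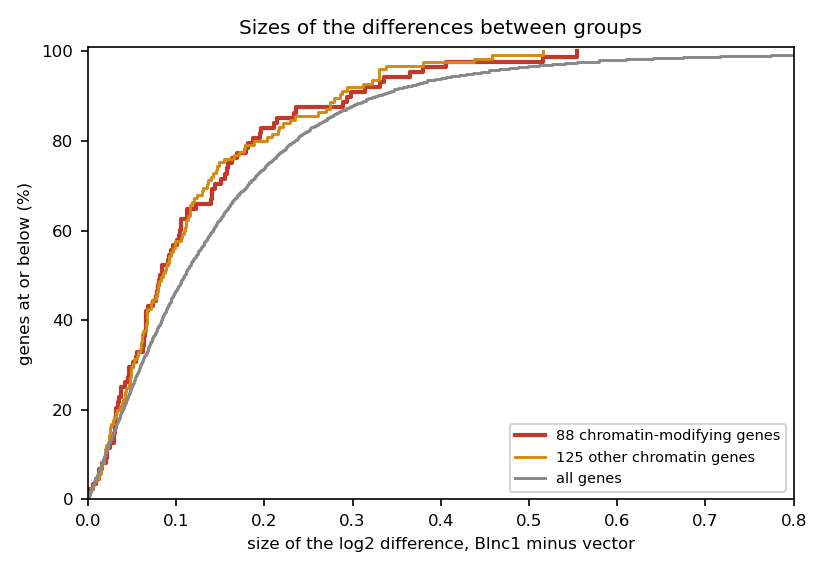
Share of genes (vertical axis, %) whose log2 difference between Blnc1 and vector cells is at or below a given size (horizontal axis, sign ignored), for the 88 chromatin-modifying genes, 125 other chromatin genes and all 10926 genes. At a size of 0.2 the curve of the 88 genes lies above that of all genes, with 83.0% against 74.1% under it. The lists were not matched for level.

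Lysine demethylases, the erasers of histone methylation, were the family with the highest median. Of 12 measured genes 10 had a positive difference and 2 a negative one, the median was 0.14, and none passed the test. Both Blnc1 arrays lay above both vector arrays for 6 of them, or below for 2, where all genes gave 28.3% above and 24.9% below. At an unadjusted p under 0.05 there were 5 of the 12, all higher, where all genes gave 11.7% higher. The family was picked out here after the values were seen, and 10 families were looked at, so its median is a description.

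Kdm3a, a demethylase of histone H3 lysine 9 that is itself a known target of hypoxia-inducible factors, had the largest difference of the 88 on the probe sets used, although a dimmer probe set of Kdm5c stood higher. It read 9.49 and 9.68 in Blnc1 cells, against 8.93 and 9.13 in vector cells. Both Blnc1 arrays were above both vector arrays, and replicate 2 was the higher in each group. The difference was 0.55 ± 0.11 (SE), 1.47-fold, with a 95% interval of 0.29 to 0.82, and did not pass (limma adjusted p = 0.0824). With the prior that follows the level it passed (limma adjusted p = 0.00135). Its promoter is printed because it stood at the head of the list, from RefSeq on GRCm38.p6, minus strand, chr6:71632868-71633167, 250 bases before to 50 after the start, 5′ to 3′. The table holds 3 windows for Kdm3a, and the one nearest the annotated gene start was taken. Capitals mark matches on either strand to CCAAT (the NF-Y box), ACGTG (a form of the hypoxia response element core) or TTTNGCGC (an E2F site). No matches overlapped. The GCGTG form of that core was not searched for.
Kdm3a: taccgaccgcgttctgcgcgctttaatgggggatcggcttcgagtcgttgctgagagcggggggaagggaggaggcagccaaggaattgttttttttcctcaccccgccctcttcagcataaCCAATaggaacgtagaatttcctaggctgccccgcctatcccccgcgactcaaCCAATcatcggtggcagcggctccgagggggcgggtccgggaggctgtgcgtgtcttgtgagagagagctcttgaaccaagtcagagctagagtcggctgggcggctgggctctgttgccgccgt
The window held 2 CCAAT matches, at -128 and -75 from the start, and neither of the other motifs searched for. CCAAT was present in 37.4%, ACGTG in 19.6% and TTTNGCGC in 1.38% of the 32851 windows in the table. A match is a string of letters and not a shown binding site.

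Kdm5a and Kdm5b, which remove methyl groups from histone H3 lysine 4, followed. Kdm5a read 8.58 and 8.59 in Blnc1 cells, against 8.08 and 8.28 in vector cells, a difference of 0.41 ± 0.095 (SE, limma adjusted p = 0.110). Its 2 further probe sets stood at 0.22 and 0.29. Kdm5b read 6.45 and 6.53 in Blnc1 cells, against 6.16 in both vector arrays, a difference of 0.33 ± 0.078 (SE, limma adjusted p = 0.111), while its dimmer probe set stood at 0.082. The groups did not overlap for either gene on the probe set used.

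Kdm1a (LSD1), which demethylates histone H3 lysine 4 and is a partner of Prdm16, read 8.31 in both Blnc1 arrays, against 8.15 and 8.06 in vector cells. The difference was 0.21 ± 0.079 (SE, limma adjusted p = 0.232), with separate groups, and its other probe set stood at 0.033. Kdm4c, named because it was the remaining demethylase with an unadjusted p under 0.05, stood at 0.20 ± 0.078 (SE, limma adjusted p = 0.254). The negative members, Kdm2b and Kdm7a, were named after their values were seen and stood at -0.091 and -0.095.

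Kdm5c, an X-linked demethylase of histone H3 lysine 4 that escapes X inactivation, was read by 5 probe sets that disagreed. The brightest held 7.81 and 8.01 in Blnc1 cells, against 7.64 and 7.89 in vector cells, with overlapping groups and a difference of 0.14 ± 0.12 (SE, limma adjusted p = 0.565). The next brightest held 7.53 and 7.56 in Blnc1 cells, against 7.03 and 7.20 in vector cells (0.43 ± 0.089 SE, limma adjusted p = 0.0891). The one of middle brightness held 6.44 and 6.35 in Blnc1 cells, against 5.67 and 5.87 in vector cells (0.62 ± 0.098 SE, limma adjusted p = 0.0593), the smallest adjusted p of all 55 further probe sets. The 2 dimmest stood at -0.043 and -0.027. Which transcripts each of the 5 reads was not analysed here. Kdm6a, the X-linked demethylase of histone H3 lysine 27 that also escapes X inactivation, stood at 0.062 ± 0.082 (SE) and at 0.11 on its other probe set. Their Y-linked counterparts Kdm5d and Uty, which are outside the 88 genes, fell by 0.87 and 1.02 in Blnc1 cells (limma adjusted p = 0.0289 and 0.0341). Kdm5d read 5.27 and 5.12 in Blnc1 cells, against 6.05 and 6.08 in vector cells.

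**Figure D2:**
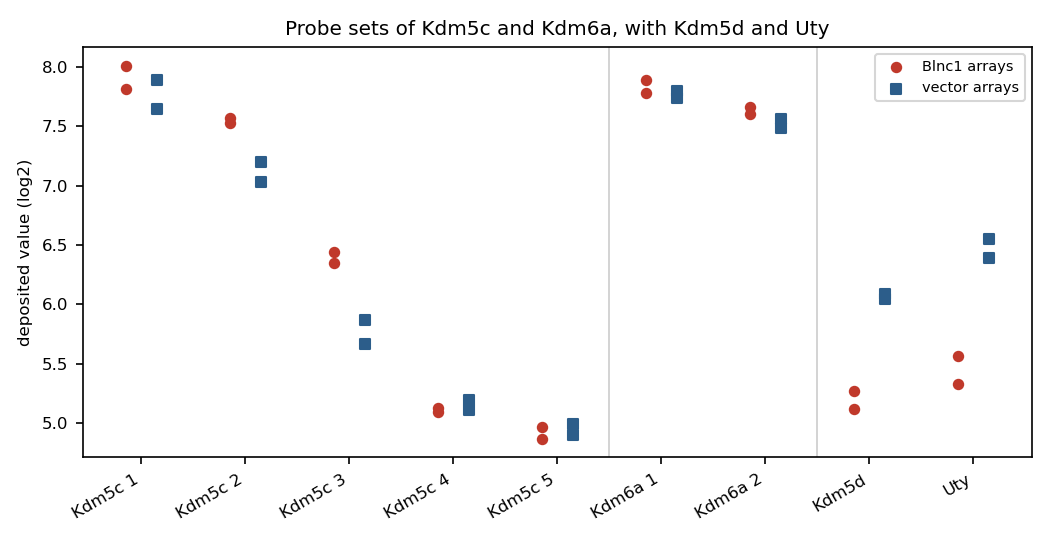
Deposited log2 values (vertical axis) on the 2 Blnc1 arrays (circles) and the 2 vector arrays (squares) for the 5 probe sets of Kdm5c and the 2 of Kdm6a, numbered from bright to dim, and for Kdm5d and Uty. Probe sets 2 and 3 of Kdm5c are higher in both Blnc1 arrays, the groups overlap on its other 3, and Kdm5d and Uty are lower in both Blnc1 arrays.

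The lysine methyltransferase family was grouped by symbol and not by shown enzyme activity. Its 18 genes, the Polycomb proteins Eed and Suz12 among them, had 10 positive and 8 negative differences, with a median of 0.038. None passed the test. The 2 alternative catalytic subunits of Polycomb repressive complex 2, which methylates histone H3 lysine 27, had the largest differences of this family and opposite signs. Ezh1, the form prevalent in resting cells, read 6.97 and 7.05 in Blnc1 cells, against 6.80 and 6.61 in vector cells, a difference of 0.30 ± 0.095 (SE, limma adjusted p = 0.182). Ezh2, the form of dividing and precursor cells, read 8.58 and 8.43 in Blnc1 cells, against 8.69 and 8.79 in vector cells, a difference of -0.24 ± 0.091 (SE, limma adjusted p = 0.243). The groups did not overlap for either, and neither passed the test. The second probe set of Ezh1 stood at 0.086. The shared core subunits Eed and Suz12 stood at -0.037 ± 0.094 and 0.041 ± 0.076 (SE), and the 4 further probe sets of Suz12 lay between -0.15 and 0.0062.

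Of 23 measured cell cycle genes 22 were negative, as was Ezh2, where 5285 of all 10926 genes were negative. The median of the 23 was -0.23, and 1, the mitotic activator Cdc20 (-0.59), passed the test, which called 1.23% of all genes. The differences were not uniform: Pcna and the Mcm genes lay between -0.13 and -0.016, except Mcm3 at -0.37. The summed level of the 23 genes (log2 of the sum) was 13.77 and 13.84 in Blnc1 cells, against 13.96 and 13.97 in vector cells. The part of this shift in the Ezh2 value was not tested. Dnmt1, the maintenance DNA methyltransferase of dividing cells, stood at 0.021. The promoters of the 2 paralogs are printed for comparison, with the same motifs in capitals, from RefSeq on GRCm38.p6: Ezh1 at chr11:101226414-101226713 and Ezh2 at chr6:47594981-47595280, both on the minus strand.
Ezh1: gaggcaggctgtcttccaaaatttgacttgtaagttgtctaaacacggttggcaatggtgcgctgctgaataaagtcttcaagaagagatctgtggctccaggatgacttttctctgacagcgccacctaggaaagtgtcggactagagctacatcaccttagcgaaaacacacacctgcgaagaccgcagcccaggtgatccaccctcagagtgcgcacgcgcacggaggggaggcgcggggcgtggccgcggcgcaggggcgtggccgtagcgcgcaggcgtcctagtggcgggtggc
Ezh2: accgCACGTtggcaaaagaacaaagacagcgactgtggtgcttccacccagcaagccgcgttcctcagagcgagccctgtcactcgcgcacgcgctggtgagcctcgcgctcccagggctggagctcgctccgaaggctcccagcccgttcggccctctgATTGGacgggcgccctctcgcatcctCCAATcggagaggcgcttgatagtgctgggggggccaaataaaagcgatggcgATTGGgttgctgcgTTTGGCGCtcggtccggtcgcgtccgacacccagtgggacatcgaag
The Ezh2 window held 3 CCAAT matches at -90, -64 and -11, 1 ACGTG match at -246 and 1 TTTNGCGC match at 4 (counted from 1 at the start). The Ezh1 window held none of the 3 motifs searched for. Both were rich in CG dinucleotides, with 31 in Ezh2 and 23 in Ezh1, against a median of 7 over all windows.

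The other lysine methyltransferases lay closer to 0. Kmt2b, which methylates histone H3 lysine 4, stood at -0.18 ± 0.081 and Setdb2, of the lysine 9 methyltransferases, at -0.17 ± 0.088 (SE, limma adjusted p = 0.305 and 0.367). The enhancer methyltransferases Kmt2c and Kmt2d stood at 0.12 ± 0.097 and -0.066 ± 0.085 (SE), and all 3 further probe sets of Kmt2c were positive, between 0.11 and 0.22. Ehmt2 (G9a), which methylates histone H3 lysine 9, stood at -0.025 ± 0.11 and Setdb1 at 0.082 ± 0.093 (SE).

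**Figure D3:**
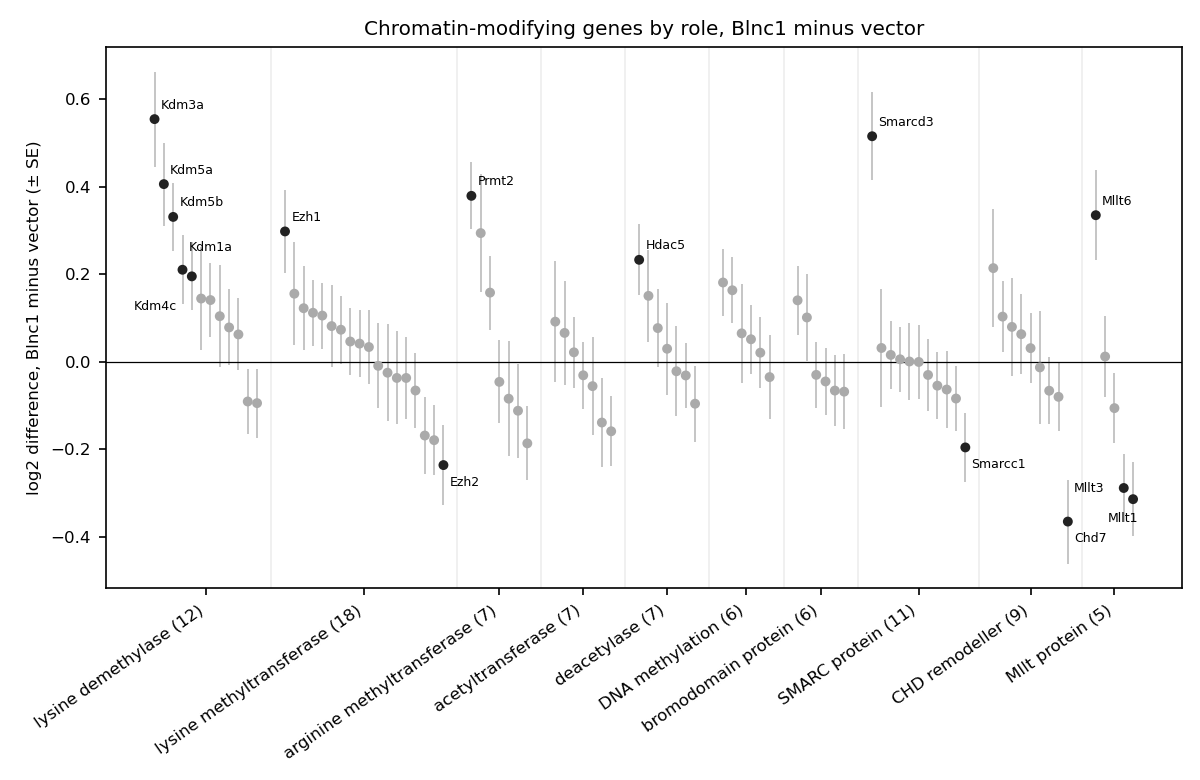
Log2 difference, Blnc1 minus vector (vertical axis), of each of the 88 genes, grouped by role with the number of genes in brackets and ordered within a role. Bars show 1 SE and dark named points have an unadjusted p under 0.05; there are 15 such genes, and no gene passed the adjusted test.

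Arginine methyltransferases gave 3 positive and 4 negative differences among 7 genes, with a median of -0.046. Prmt2, which methylates arginines of histone H3 and also acts as a coactivator of nuclear receptors, read 6.18 in both Blnc1 arrays, against 5.83 and 5.78 in vector cells. The difference was 0.38 ± 0.076 (SE), 1.30-fold, and did not pass (limma adjusted p = 0.0866). Prmt9 stood at 0.29 ± 0.14 and Prmt3, which methylates a ribosomal protein, at -0.19 ± 0.085 (SE). The major arginine methyltransferases of their types, Prmt1 and Prmt5, stood at -0.11 ± 0.11 and -0.084 ± 0.13 (SE), with overlapping groups.

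The enzymes that set and remove acetyl groups lay between -0.16 and 0.23 on the probe sets used. Among 7 acetyltransferases 3 were positive and 4 negative, none reached an unadjusted p under 0.05, and the largest difference was that of Crebbp (CBP), a coactivator of cAMP-responsive transcription. Crebbp read 8.15 and 8.23 in Blnc1 cells, against 8.33 and 8.37 in vector cells (-0.16 ± 0.080 SE, limma adjusted p = 0.350). Kat6a stood at -0.14 ± 0.10, Kat2a (GCN5) at 0.092 ± 0.14 and Kat2b (PCAF) at -0.031 ± 0.077 (SE). The probe sets of Kat2b disagreed in sign, and a dim one stood lower. Among 7 deacetylases 4 were positive and 3 negative. Hdac5, a class IIa deacetylase that binds MEF2 factors, read 6.09 and 6.20 in Blnc1 cells, against 5.92 and 5.90 in vector cells (0.23 ± 0.081 SE, limma adjusted p = 0.206). The class I enzymes Hdac1 and Hdac2 stood at -0.031 ± 0.075 and -0.096 ± 0.087, and the dim Hdac8 at 0.15 ± 0.10 (SE).

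Genes of DNA methylation differed by less than 0.2 each. Of 6 genes 5 were positive, with a median of 0.058. Tet2, which oxidises methylcytosine, read 7.67 and 7.65 in Blnc1 cells, against 7.45 and 7.50 in vector cells (0.18 ± 0.076 SE, limma adjusted p = 0.277). Tet3 stood at 0.065 ± 0.11 (SE). The de novo methyltransferases Dnmt3a and Dnmt3b stood at -0.035 ± 0.097 and 0.051 ± 0.079 (SE), and the 4 further probe sets of Dnmt3a ranged between -0.018 and 0.24. Dnmt3l, a catalytically inactive cofactor known from germ cells, stood at 0.16 ± 0.076 (SE) on a probe set in the dimmest 25%.

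Among the SMARC proteins, the subunits and relatives of SWI/SNF remodellers, 5 genes were positive and 6 negative and the median was -4.7e-04. Smarcd3 (BAF60c), the subunit known from heart and skeletal muscle, stood apart. It read 6.66 and 6.49 in Blnc1 cells, against 5.98 and 6.14 in vector cells. The difference was 0.52 ± 0.10 (SE), 1.43-fold, with a 95% interval of 0.27 to 0.76, and did not pass (limma adjusted p = 0.0818). With the prior that follows the level it passed (limma adjusted p = 0.0153). The alternative subunits of the same position, Smarcd1 and Smarcd2, were named after their values were seen and stood at 0.016 on a dim probe set and at -4.7e-04. The 3 skeletal muscle markers measured were higher in Blnc1 cells by a median of 0.060, and none passed. Des stood at 0.37 with separate groups, and Ckm and Myog at 0.059 and 0.060 with overlapping groups. The probe sets of Des and Myog were dim. Smarcc1 (BAF155), a core subunit, stood at -0.20 ± 0.079 on the probe set used and at -0.23 on its other one, and its paralog Smarcc2 at -0.084 ± 0.075 (SE). The ATPase Smarca2 stood at -0.064 ± 0.089 and the core subunit Smarcb1 at 6.3e-04 ± 0.088 (SE).

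CHD remodellers, ATPases that mostly carry chromodomains, were split 5 to 4 with a median of 0.031. Chd7, which acts at enhancers and is best known from neural crest development, had the most negative difference of the 88 genes on the probe sets used, although a dim probe set of Kat2b stood lower, at -0.38. It read 6.14 and 5.95 in Blnc1 cells, against 6.37 and 6.45 in vector cells (-0.37 ± 0.096 SE, limma adjusted p = 0.134), and its second, dimmer probe set stood at -0.36 ± 0.081 (SE, limma adjusted p = 0.106). Both probe sets had separate groups. Chd1 stood at 0.21 ± 0.14, Chd4, the ATPase of the NuRD complex, at 0.080 ± 0.11 and Chd9 at -0.013 ± 0.13 (SE), each with overlapping groups.

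Bromodomain genes lay between -0.068 and 0.14, 2 positive and 4 negative. Brd3, a BET protein that binds acetylated histones, read 7.25 and 7.29 in Blnc1 cells, against 7.09 and 7.17 in vector cells (0.14 ± 0.078 SE, limma adjusted p = 0.399), and its 3 further probe sets were all positive, between 0.13 and 0.18. The BET protein Brd2 stood at -0.066 ± 0.080 and Brd9 at 0.10 ± 0.10 (SE). Of the 5 Mllt genes, 3 had an unadjusted p under 0.05, 1 higher and 2 lower, where all genes gave 20.7%; so small a list is only described. Mllt1 (ENL) and Mllt3 (AF9), paralogous readers of acylated histones in elongation complexes, stood at -0.31 ± 0.085 and -0.29 ± 0.077 (SE, limma adjusted p = 0.138 and 0.137), both with separate groups. Mllt6 stood at 0.34 ± 0.10 (SE, limma adjusted p = 0.172).

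**Figure D4:**
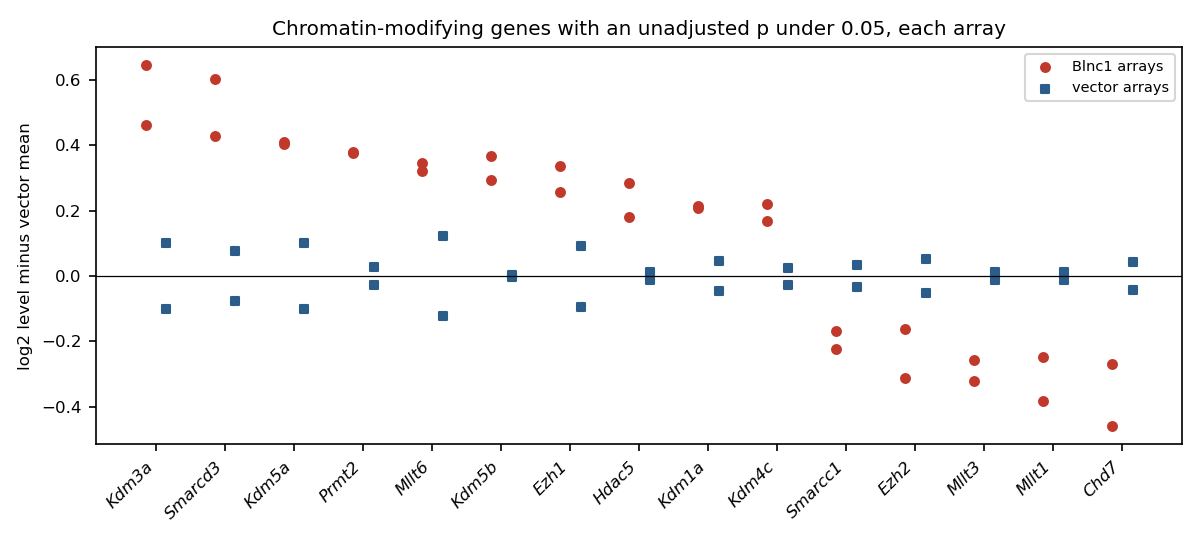
Log2 level of each array minus the mean of the vector arrays (vertical axis) for the 15 genes with an unadjusted p under 0.05, with the 2 Blnc1 arrays as circles and the 2 vector arrays as squares. The groups are separate for all 15 genes, which the choice by p favours, and 10 are higher and 5 lower in Blnc1 cells.

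The 33 genes with several probe sets gave a check of single readings. Of their 55 further probe sets 42 had the sign of the one used and 13 the opposite sign, and none passed the test. The 8 further probe sets of genes with an unadjusted p under 0.05 all had the sign of the one used. Among those of opposite sign 1 had an unadjusted p under 0.05, a probe set of Dnmt3a.

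Other chromatin proteins that the symbol pattern does not reach, among them subunits of Polycomb, NuRD, SIN3, MLL, SAGA and SWI/SNF complexes, histone readers and further enzymes, were taken from a second list. Of 125 measured genes none passed (limma), 22 had an unadjusted p under 0.05 (17.6%, against 20.7% of all genes), 16 of them higher and 6 lower in Blnc1 cells, and the median difference was 0.025. Jarid2, a catalytically inactive Jumonji protein that recruits Polycomb repressive complex 2, came closest. It read 9.58 and 9.57 in Blnc1 cells, against 9.05 and 9.07 in vector cells, a difference of 0.52 ± 0.075 (SE, limma adjusted p = 0.0508). It passed after each array was centred on its median (limma adjusted p = 0.0494), without the dimmest 25% of probe sets (0.0370) and with the prior that follows the level (2.08e-04). Jmjd6, a Jumonji oxygenase, stood at 0.38 ± 0.076 (SE, limma adjusted p = 0.0853). Without probe sets prone to cross-hybridisation it was read from another one, at 0.82 (limma adjusted p = 0.0432). Hmg20b, a subunit of the LSD1 and CoREST complex, stood at 0.44 ± 0.11 on a dim probe set, and the helicase Ruvbl2 at 0.34 ± 0.088 (SE, limma adjusted p = 0.118 and 0.133).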

How the data were processed

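Per the labels' protocols, 250 ng of total RNA from each culture was biotin-labelled for Affymetrix Mouse MG-430 PM Strip arrays, read in 1 colour. The values deposited are 1 log2 value per probe set and array, made by the authors; the submitters' processing notes name RMA, affy and limma without versions or settings. The log2 scale was read from the range of the values. Differences of dim probe sets are understated by RMA. Raw intensities were not used here.

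Of 23634 probe sets 35 array controls were left out. The platform annotation in GEO gave the gene names: 16692 of the 23599 probe sets tested had 1 symbol, 372 had several and 6535 had none. Groups came from the sample titles. Blnc1 and vector arrays were compared two-sided with lmFit and eBayes of limma 3.58.1 (R 4.3.3), without covariates or a filter. Benjamini-Hochberg adjustment covered all 23599 probe sets, with 0.05 as the threshold. Prior degrees of freedom were 3.95. The fit was tested on simulated data. Dim means the lowest 25% of probe sets by mean.

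Genes were named by a rule: of each role the 3 with the smallest p, the 8 most positive and 8 most negative differences, the 4 other chromatin genes with the smallest p, and a set known from adipocyte work. The members and lists were chosen with earlier results of these data known. The alternatives were other priors, thresholds, normalizations and probe set choices, a replicate block and leaving out each array.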

Additional observations from a re-analysis of the deposited data

How the results depend on the processing

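No chromatin-modifying gene passed under a robust prior, without moderation, at a threshold of 0.01, after repeated quantile normalization or median centring, without the dimmest 25% of probe sets, without probe sets prone to cross-hybridisation, without the Mllt genes, or without any 1 array (0 to 0 genes). With the prior that follows the level 3 passed (Kdm3a, Kdm5a and Smarcd3), where all probe sets gave 2174 calls against 219. At a threshold of 0.1 there were 3 (Kdm3a, Prmt2 and Smarcd3, against 4.99% of all genes), and 3 after averaging each gene's probe sets (the same genes, against 4.27%), a fit that tests fewer features. The calls over all probe sets were 0 without moderation, 3 at a threshold of 0.01, 958 at 0.1, 334 without the dimmest 25% of probe sets, and 3 to 38 without 1 array. With the replicate number as a block, 30 probe sets and 0 of the 88 genes passed; the replicate differences of the groups correlated at 0.089 over all probe sets and 0.42 over the 88 genes, and the 2 samples of a number share only that number. The median difference of the 88 genes was 0.0052 after median centring and -0.0017 to 0.045 without 1 array. Of the 125 other chromatin genes, 1 (Jarid2) passed after median centring and 2 (Jmjd6 and Mbd2) after averaging, which called 4.27% of all genes. Further settings were applied to them after the data were seen. The prior that follows the level gave 7 of the 125, where it called 11.3% of all genes. A threshold of 0.1 gave 2, where it called 4.99% of all genes. There was 1 each without the dimmest 25% (Jarid2) and without probe sets prone to cross-hybridisation (Jmjd6).

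Of 655 values of 55 named genes under the alternatives, 615 kept their sign and side of the threshold, 13 passed and 27 changed sign, in 17 genes whose main difference was at most 0.11 in size. Without 1 array, the difference ranged between -0.0035 and 0.21 for Brd9, -0.030 and 0.19 for Chd4, -0.17 and 0.14 for Chd9, -0.035 and 0.076 for Dnmt1, -0.14 and 0.067 for Dnmt3a, -0.12 and 0.047 for Eed, -0.15 and 0.10 for Ehmt2, -0.11 and 0.29 for Kat2a, -0.13 and 0.0021 for Kmt2d, -0.23 and 0.0062 for Prmt1, -0.27 and 0.10 for Prmt5, -0.0098 and 0.17 for Setdb1, -0.14 and 0.015 for Smarca2, -0.068 and 0.070 for Smarcb1 and between -0.077 and 0.21 for Tet3. Smarcb1 stood at -0.0063 after repeated quantile normalization and -0.015 after median centring. Kat2b stood at 0.097 and Suz12 at -0.15 without probe sets prone to cross-hybridisation. After averaging, Dnmt3a stood at 0.075, Ehmt2 at 0.0056 and Suz12 at -0.037. The cause of these changes was not tested. Signal over background could not be set, since the deposited table holds no detection calls.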
